A study of Mus musculus with 9 samples.

Results

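The nicotinic acetylcholine receptor subunit genes Chrna3, Chrnb3, Chrna4, Chrnb2 and Chrna7 were followed across 9 RNA-seq libraries of mouse hippocampus. The genes were given by name, and their rows were found by matching the Ensembl identifiers of the deposited table to the GENCODE M21 annotation, so they make up 5 of the 14779 genes in the table. They were chosen by their levels and fold changes in the antibody group against the other groups, so those values are a description and carry no test. The table also held 5 other nicotinic subunit genes, Chrna1, Chrna2, Chrna5, Chrnb1 and Chrnb4, and Chrna6, Chrna9, Chrna10, Chrnd, Chrne and Chrng were not analysed here.

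The libraries fell into 3 groups of 3, and the series' design text counts 3 mice in each. CIE+IL17 Ab mice were exposed to CIE, chronic intermittent ethanol, and received an antibody against interleukin 17A, a cytokine of the immune system. CIE+IgG mice had the same ethanol exposure with IgG, an immunoglobulin that serves as the control for the antibody, and Air+IgG mice were kept in air and also received IgG. Both IgG groups carry the treatment label iso. Strain, sex, age, genotype, ethanol dose and antibody schedule are not given in the labels, and no group combines air with the interleukin 17A antibody.

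Nicotinic receptors are cation channels opened by acetylcholine and by nicotine, and each channel is a ring of subunits around a pore. In the brain, alpha4 and beta2 form the common high-affinity receptor, alpha7 can form channels by itself that pass much calcium, and alpha3 with beta4 is the receptor of autonomic ganglia. Alpha3, beta4 and beta3 are also strongly expressed in the medial habenula, a small nucleus above the thalamus that lies close to the hippocampus. In the hippocampus, alpha7 is known from interneurons and pyramidal cells, and nicotinic receptors there modulate the release of glutamate and GABA.

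The promoters of the subunits that were higher in CIE+IL17 Ab are shown beside that of Chrna7, which was lower, since they are the sequences directly before genes that moved together or apart. Each runs 5′ to 3′ on the strand of the gene, from 250 bases before to 50 bases after the start site, and comes from RefSeq on GRCm38.p6. RefSeq entries were found for 4 of the 5 genes, and Chrnb3 is named only. Chrnb4 is added because it neighbours Chrna3. Capitals mark every match, on either strand, to the GC box GGGCGG or the E-box CANNTG.
Chrna3: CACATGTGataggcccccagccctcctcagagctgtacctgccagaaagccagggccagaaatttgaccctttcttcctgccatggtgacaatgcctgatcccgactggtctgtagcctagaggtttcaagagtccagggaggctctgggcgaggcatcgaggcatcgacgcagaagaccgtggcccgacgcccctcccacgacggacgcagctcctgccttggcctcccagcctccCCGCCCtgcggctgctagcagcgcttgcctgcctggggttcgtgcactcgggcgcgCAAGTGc
Chrnb4: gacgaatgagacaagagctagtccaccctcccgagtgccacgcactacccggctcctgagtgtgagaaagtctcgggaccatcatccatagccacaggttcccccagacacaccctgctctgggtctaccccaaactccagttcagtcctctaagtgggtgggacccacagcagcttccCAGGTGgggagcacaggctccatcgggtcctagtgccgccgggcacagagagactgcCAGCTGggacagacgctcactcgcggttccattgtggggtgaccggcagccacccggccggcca
Chrna4: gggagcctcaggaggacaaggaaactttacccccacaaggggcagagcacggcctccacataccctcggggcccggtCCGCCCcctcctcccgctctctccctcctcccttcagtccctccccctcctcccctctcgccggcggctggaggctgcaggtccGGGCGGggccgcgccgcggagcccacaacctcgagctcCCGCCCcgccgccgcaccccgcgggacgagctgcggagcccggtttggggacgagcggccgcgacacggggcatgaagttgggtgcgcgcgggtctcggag
Chrnb2: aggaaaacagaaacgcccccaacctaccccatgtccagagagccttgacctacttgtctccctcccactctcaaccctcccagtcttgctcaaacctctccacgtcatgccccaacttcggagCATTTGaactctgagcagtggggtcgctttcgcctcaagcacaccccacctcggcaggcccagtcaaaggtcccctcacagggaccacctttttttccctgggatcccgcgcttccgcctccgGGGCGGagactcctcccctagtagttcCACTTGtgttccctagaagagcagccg
Chrna7: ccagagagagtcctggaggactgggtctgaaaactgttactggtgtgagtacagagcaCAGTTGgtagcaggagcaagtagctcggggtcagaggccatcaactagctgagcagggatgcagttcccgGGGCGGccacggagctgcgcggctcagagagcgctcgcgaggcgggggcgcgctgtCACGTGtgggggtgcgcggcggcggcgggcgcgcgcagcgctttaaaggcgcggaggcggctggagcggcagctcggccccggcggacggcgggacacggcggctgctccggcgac
These windows lie at chr9:55026513-55026812 for Chrna3, chr9:55048495-55048794 for Chrnb4, chr2:181039128-181039427 for Chrna4, chr3:89764583-89764882 for Chrnb2 and chr7:63212477-63212776 for Chrna7, all on the minus strand. The RefSeq start site of Chrna4 lies 4369 bases inside the gene as GENCODE M21 draws it.

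The GC box occurred 3 times in the Chrna4 window and 1 time each in those of Chrna3, Chrnb2 and Chrna7, and it was found in 35.7% of the 32851 promoters of the RefSeq table. The E-box occurred 3 times in the Chrna3 window, where 2 matches overlap at its first bases, and 2 times each in those of Chrnb4, Chrnb2 and Chrna7. The E-box was found in 72.3% of all promoters. No match to the TATA box TATAAA, the octamer ATGCAAAT or the cyclic AMP response element TGACGTCA was found in these 5 windows, and 13.6%, 1.74% and 1.79% of all promoters held them. The GC content was 64.3% for Chrna3, 63.0% for Chrnb4, 74.3% for Chrna4, 59.0% for Chrnb2 and 70.0% for Chrna7, with a median of 52.7% over all promoters. The windows of the higher genes and of the lower gene thus held the same kinds of match, apart from the E-box in Chrna4 and the GC box in Chrnb4, which had none.

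Libraries held 7372658 to 11894628 estimated counts, and 14696 genes were tested in one fit with edgeR's quasi-likelihood test. The CIE+IL17 Ab libraries did not overlap the other 6 in the summed hippocampal pyramidal and granule cell, medial habenula, thalamus and microglia markers. The other marker lists overlapped with at least 1 IgG group. Of 7 hippocampal pyramidal and granule cell markers, the summed level was 530.1, 868 and 1432 CPM (TMM-scaled read counts relative to the library total) in CIE+IL17 Ab, 2066, 2035 and 1449 CPM in CIE+IgG libraries and 1721, 2801 and 1513 CPM in Air+IgG. Neurod6, a transcription factor of pyramidal neurons, had 8, 20 and 445 counts in CIE+IL17 Ab, 1582, 1283 and 961 counts in CIE+IgG and 1370, 1379 and 1495 counts in Air+IgG. Zbtb20, a broadly expressed member of the list, gave 405 of the 530.1 CPM in CIE+IL17 Ab replicate 1. The more specific Spink8 had 0.834, 0.548 and 3.27 CPM in CIE+IL17 Ab against 8.05 CPM or more in each IgG library. Neurod6 and Spink8 were thus nearly lost in CIE+IL17 Ab replicates 1 and 2. Fibcd1 did not overlap the IgG libraries either, while Wfs1, Prox1, C1ql2 and Zbtb20 did. Prox1 had 159 and 167 CPM in CIE+IL17 Ab replicates 2 and 3, within the 118 to 265 CPM of the IgG libraries. Of all genes, 468 were called at an adjusted p under 0.05 in CIE+IL17 Ab against CIE+IgG and 1990 in CIE+IL17 Ab against Air+IgG. Without single libraries the first count was 348, 19 and 1313 (CIE+IL17 Ab replicates 1, 2 and 3), 0, 7 and 715 (CIE+IgG), and 22, 223 and 18 (Air+IgG). The second count was 218 with CIE+IL17 Ab replicate 2 left out, 1122 with CIE+IgG replicate 1 left out, and 478, 336 and 0 with Air+IgG replicates 1, 2 and 3 left out in turn.

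Across the groups, 4 of the 5 subunits were higher in CIE+IL17 Ab than in either IgG group, and Chrna7 was lower. Chrna3 and Chrnb3 were near the limit of detection in both IgG groups and clearly counted in all 3 CIE+IL17 Ab libraries. Chrna4 was more than 3 times higher by its mean, Chrnb2 was higher by less than 1.5 times, and the mean of Chrna7 was 14.3 CPM against 24.3 CPM in CIE+IgG libraries and 25.5 CPM in Air+IgG. None of the 5 differed between CIE+IgG and Air+IgG beyond the spread of the libraries. In these bulk samples, a different number of cells of a type and a different RNA level per cell cannot be told apart. The labels do not describe the dissection, and a difference in the tissue taken was not tested.

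**Figure D1:**
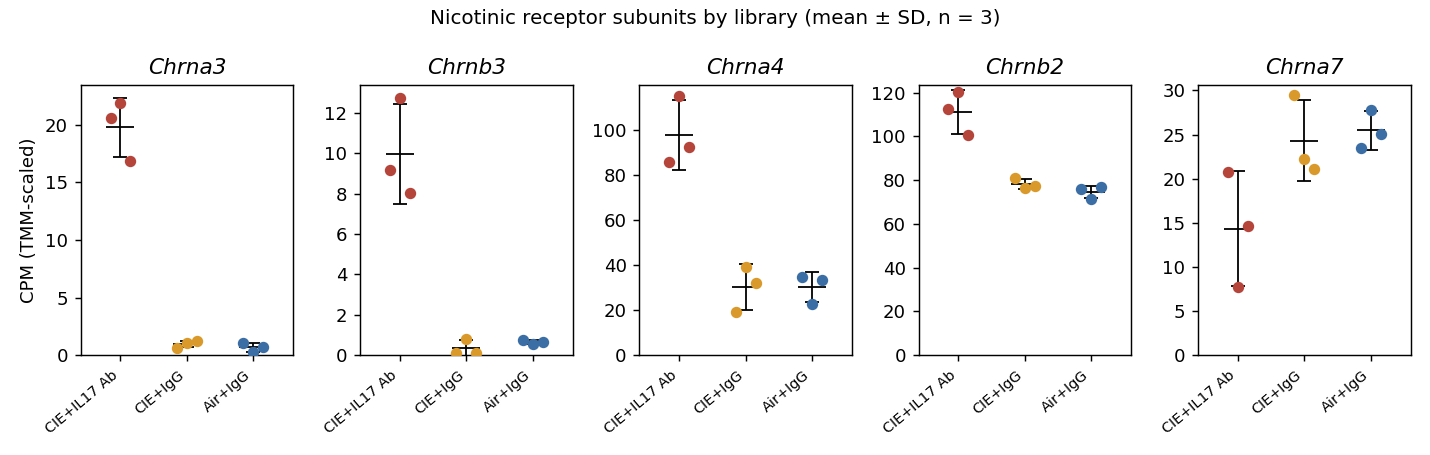
Level of each of the 5 subunits (y axis, TMM-scaled CPM from 0, with its own scale per panel) in CIE+IL17 Ab, CIE+IgG and Air+IgG; points are libraries, and bars are the mean ± SD of 3. In every panel the CIE+IL17 Ab points do not overlap the other 2 groups, above them for Chrna3, Chrnb3, Chrna4 and Chrnb2 and below them for Chrna7.

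Chrna3 encodes the alpha3 subunit, which carries acetylcholine binding sites in ganglionic and habenular receptors, and lies on chromosome 9 (GRCm38, 55010111 to 55026562, minus strand). It had 20.6, 21.8 and 16.9 CPM in CIE+IL17 Ab, 0.644, 1.05 and 1.21 CPM in CIE+IgG libraries and 1.08, 0.269 and 0.663 CPM in Air+IgG. All 3 CIE+IL17 Ab libraries were high, all 6 others were low, and the groups did not overlap. In estimated counts these levels are 147.76, 279 and 159.65 in CIE+IL17 Ab against 6, 9 and 13 in CIE+IgG and 10, 2 and 7 in Air+IgG. The log2 fold change was 4.32 with a standard error of 0.33 against CIE+IgG and 4.81 with a standard error of 0.35 against Air+IgG. Between the IgG groups, 28 summed counts in CIE+IgG stood against 19 in Air+IgG, a ratio of 1.40 with a 95% exact interval of 0.756 to 2.66 that covers counting error only.

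Chrnb3 encodes the beta3 subunit, an accessory subunit that takes no direct part in the classical binding site, and lies on chromosome 8 (27368711 to 27399730, plus strand). Its levels were 9.17, 12.8 and 8.02 CPM in CIE+IL17 Ab, 0.107, 0.819 and 0.0932 CPM in CIE+IgG libraries and 0.758, 0.538 and 0.663 CPM in Air+IgG. The CIE+IL17 Ab libraries again lay above all others, and within CIE+IgG replicate 2 held most of the counts. The counts were 66, 163 and 76 in CIE+IL17 Ab, 1, 7.01 and 1 in CIE+IgG, and 7, 4 and 7 in Air+IgG. The log2 fold change was 4.91 with a standard error of 0.55 against CIE+IgG, and 6.47 without CIE+IgG replicate 2. Against Air+IgG it was 3.90 with a standard error of 0.49. Summed over the IgG groups, 9 counts in CIE+IgG against 18 in Air+IgG gave a ratio of 0.476, with a 95% exact interval of 0.188 to 1.12.

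Chrna3 and Chrnb3 did not reach 10 counts in all 3 libraries of either IgG group, so both passed the filter on low counts through CIE+IL17 Ab, the group in which they are high. Their inclusion in the test thus already depended on a higher level there. With a filter of more than 1 CPM in all 9 libraries neither was tested.

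Chrna4 encodes the alpha4 subunit of the high-affinity brain receptor and lies on chromosome 2 (181018380 to 181043546, minus strand). It had 85.6, 115 and 92.4 CPM in CIE+IL17 Ab, 19.2, 39.1 and 32.2 CPM in CIE+IgG libraries and 34.7, 22.7 and 33.1 CPM in Air+IgG. The lowest CIE+IL17 Ab library was thus more than 2 times the highest IgG library, and the IgG groups overlapped fully. The log2 fold change was 1.70 against CIE+IgG and 1.69 against Air+IgG, each with a standard error of 0.26.

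Chrnb2 encodes beta2, the usual partner of alpha4, and lies on chromosome 3 (89746195 to 89764632, minus strand). Its levels were 113, 120.1 and 100.4 CPM in CIE+IL17 Ab, 80.9, 76.5 and 77.4 CPM in CIE+IgG libraries and 75.7, 71.5 and 76.9 CPM in Air+IgG. The IgG libraries were close to each other, with SDs of 2.30 CPM in CIE+IgG libraries and 2.82 CPM in Air+IgG, and the CIE+IL17 Ab libraries lay above them. The log2 fold change was 0.51 against CIE+IgG and 0.57 against Air+IgG, each with a standard error of 0.08. Chrnb2 overlaps Adar, an RNA-editing enzyme on the opposite strand, by 7252 bases, and the sources used here do not say whether reads were counted by strand, so reads of the pair may not be told apart. Adar had a log2 fold change of 0.23 against CIE+IgG (adjusted p = 0.303, edgeR).

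Chrna7 encodes the alpha7 subunit and lies on chromosome 7 (63098692 to 63212569, minus strand). It had 20.7, 7.67 and 14.7 CPM in CIE+IL17 Ab, 29.5, 22.2 and 21.1 CPM in CIE+IgG libraries and 23.5, 27.8 and 25.1 CPM in Air+IgG. The CIE+IL17 Ab libraries were the lowest 3 of the 9, but replicate 1 of CIE+IL17 Ab lay only just under replicate 3 of CIE+IgG. The spread within CIE+IL17 Ab was wide, with a mean of 14.3 ± 6.52 CPM against 24.3 ± 4.59 CPM in CIE+IgG libraries and 25.5 ± 2.19 CPM in Air+IgG (SD, n = 3 each). The log2 fold change was -0.78 against CIE+IgG and -0.85 against Air+IgG, each with a standard error of 0.31. These values were -0.47 and -0.54 without CIE+IL17 Ab replicate 2.

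Both antibody comparisons share the CIE+IL17 Ab libraries, so their values for a gene are not independent of each other. Groups did not overlap for all 5 subunits in both, where this held for 25.9% of all genes tested against CIE+IgG and 35.3% against Air+IgG. In edgeR's test 4 of the 5, all but Chrna7, were called in each, beside 3.18% of all genes against CIE+IgG and 13.5% against Air+IgG. The 4 against CIE+IgG became 0 on leaving out CIE+IgG replicate 1, and 2 on leaving out replicate 2 of CIE+IL17 Ab, replicate 2 of CIE+IgG, or replicate 1 or 3 of Air+IgG. The 4 against Air+IgG became 0 on leaving out Air+IgG replicate 3. Nothing is read from these counts, since the members were chosen with them known.

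**Figure D2:**
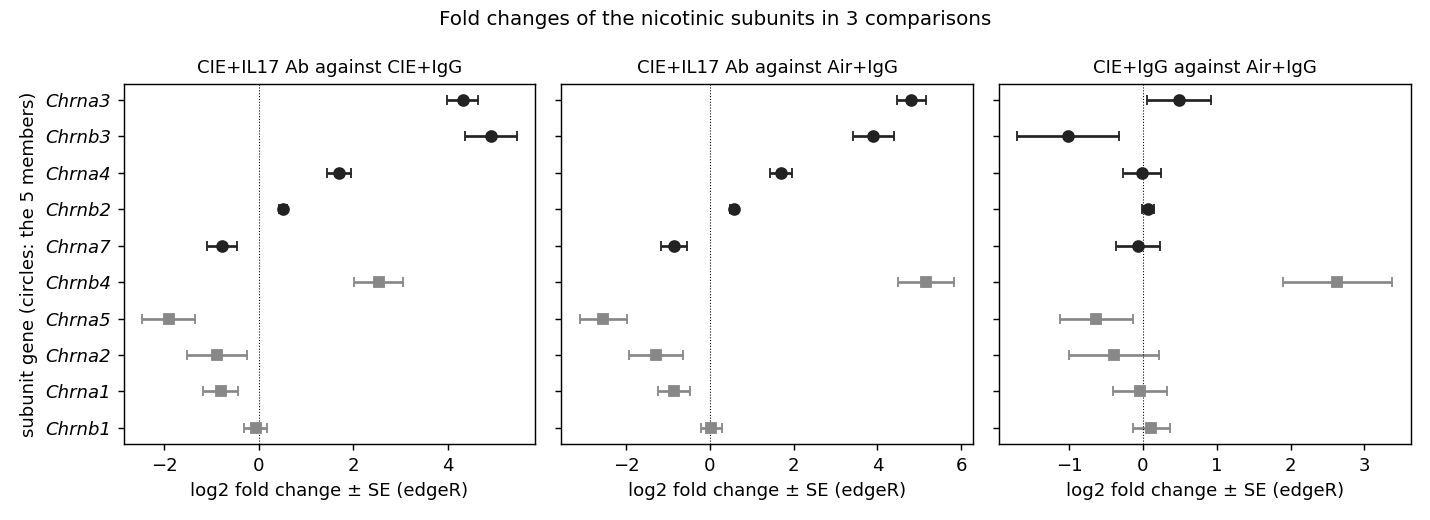
Log2 fold change ± standard error (x axis, edgeR, with its own range per panel) of the 10 nicotinic subunit genes (y axis) in 3 comparisons; circles are the 5 subunits described here and squares the 5 other subunits. Chrna3 and Chrnb3 lie at 3.90 or more in both antibody comparisons, and in CIE+IgG against Air+IgG the 5 circles lie between -1.01 and 0.49.

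The effect of ethanol exposure under IgG did not enter the choice of genes and was tested. Of the 5 subunits 0 were called in CIE+IgG against Air+IgG, in edgeR, DESeq2 and limma-voom alike, and 0 had an unadjusted p under 0.05 in any of them. Over all genes edgeR called 0.0%, with 406 genes (2.76%) at an unadjusted p under 0.05, and DESeq2 called 6. The log2 fold changes were 0.49 ± 0.43 for Chrna3, -1.01 ± 0.69 for Chrnb3, -0.01 ± 0.26 for Chrna4, 0.07 ± 0.08 for Chrnb2 and -0.07 ± 0.30 for Chrna7 (± standard error, adjusted p = 1.0 for each in edgeR). The groups overlapped for all 5, where 9.44% of all genes did not overlap. The standard error was narrow for Chrnb2, while for Chrna3 and Chrnb3 differences of the size seen were not detectable at this depth.

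Levels of different genes were compared as CPM per kilobase of the union of annotated exons. In CIE+IL17 Ab, Chrna4 had 19.5 ± 3.07, Chrnb2 13.3 ± 1.19, Chrna3 3.75 ± 0.489, Chrna7 3.18 ± 1.45 and Chrnb3 1.57 ± 0.388 CPM per kb (SD, n = 3). Chrna4 and Chrnb2 did not overlap, while the ranges of Chrna3 and Chrna7, and of Chrna7 and Chrnb3, did. In CIE+IgG the order of the 5 began with Chrnb2 at 9.34 ± 0.274, then Chrna4 at 6.01 ± 2.01, Chrna7 at 5.39 ± 1.02, Chrna3 at 0.184 ± 0.0556 and Chrnb3 at 0.0534 ± 0.0652 CPM per kb. In Air+IgG the same order held, with 8.92 ± 0.336, 6.01 ± 1.29, 5.66 ± 0.486, 0.128 ± 0.0774 and 0.103 ± 0.0174 CPM per kb. In both IgG groups Chrnb2 stood clear of the rest, Chrna4 and Chrna7 overlapped, and so did Chrna3 and Chrnb3. Divided by the longest annotated transcript instead, Chrna7 ranked above Chrna4 in CIE+IgG and Air+IgG, and above Chrna3 in CIE+IL17 Ab, so the order of these pairs depends on the length used.

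The summed level of the 10 nicotinic subunit genes was 44.1, 52.1 and 45.1 CPM per kb in CIE+IL17 Ab, 24.8, 27.6 and 24.9 in CIE+IgG, and 25.9, 26.0 and 26.2 in Air+IgG. Most of that gap came from Chrna4, which held 41.1% of the sum in CIE+IL17 Ab and 23.1% in each of CIE+IgG and Air+IgG. Chrnb2 held 28.2% in CIE+IL17 Ab, 36.4% in CIE+IgG and 34.3% in Air+IgG. The share of Chrna7 was 6.97% in CIE+IL17 Ab, 21.0% in CIE+IgG and 21.7% in Air+IgG. Chrna3 made up 7.98% in CIE+IL17 Ab, 0.714% in CIE+IgG and 0.491% in Air+IgG, and Chrnb3 3.30%, 0.198% and 0.394% in the same groups. The ratio of Chrna4 to its partner Chrnb2 was 1.27, 1.60 and 1.54 in CIE+IL17 Ab, 0.397, 0.852 and 0.694 in CIE+IgG, and 0.764, 0.530 and 0.719 in Air+IgG. The ratio was above 1 in every CIE+IL17 Ab library and under 1 in the other 6. RNA shares do not give the make-up of receptors at the protein level.

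**Figure D3:**
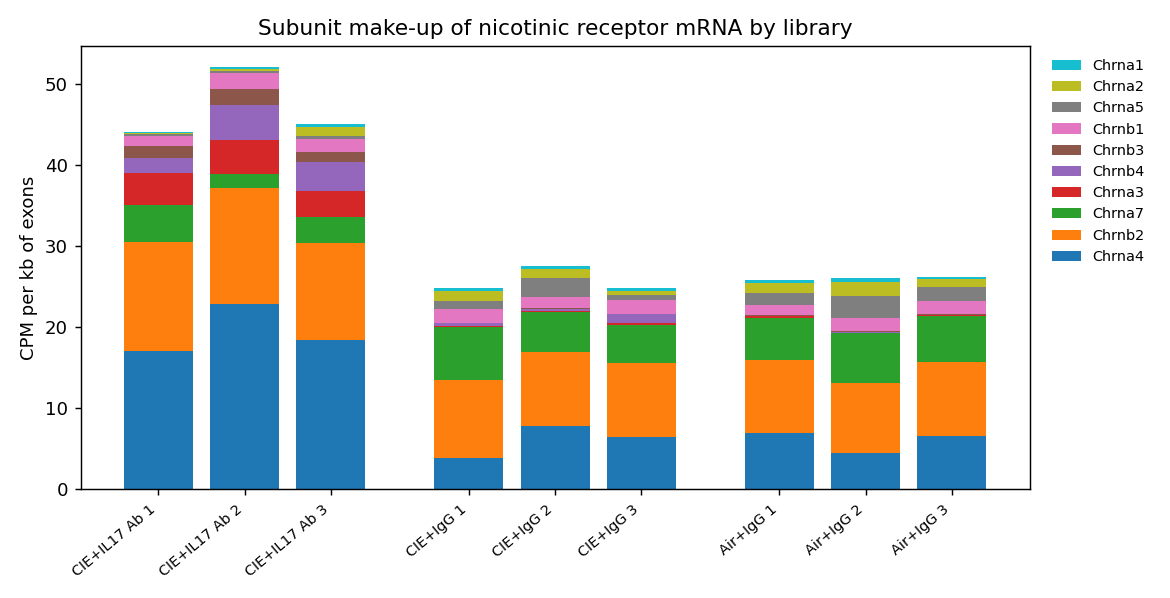
Stacked level of the 10 nicotinic subunit genes (y axis, TMM-scaled CPM per kb of exons, from 0) in each of the 9 libraries (x axis), with CIE+IL17 Ab on the left, then CIE+IgG and Air+IgG. The CIE+IL17 Ab stacks reach 44.1 to 52.1 and the 6 others 24.8 to 27.6, and bands of Chrna3, Chrnb4 and Chrnb3 are wide in CIE+IL17 Ab.

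Among the other subunits, those next to Chrna3 in the chromosome 9 cluster differed in direction. Chrnb4, the beta4 partner of alpha3, lies 1.59 kb from Chrna3 and had 7.23, 16.2 and 13.4 CPM in CIE+IL17 Ab, 1.29, 0.819 and 4.10 CPM in CIE+IgG libraries and 0.325, 0.403 and 0.284 CPM in Air+IgG. Its log2 fold change in CIE+IL17 Ab was 2.54 ± 0.52 against CIE+IgG and 5.16 ± 0.67 against Air+IgG (± standard error). Like Chrna3 it reached 10 counts in all libraries of a group in CIE+IL17 Ab only, so it passed the filter through the group where it is high and no test is read from these values. Chrna5, an accessory alpha subunit 2.33 kb from the other end of Chrna3, had 0.834, 0.783 and 1.48 CPM in CIE+IL17 Ab, 3.22, 7.02 and 1.58 CPM in CIE+IgG libraries and 4.66, 8.20 and 5.30 CPM in Air+IgG. It was lower in CIE+IL17 Ab against Air+IgG (log2 fold change -2.54 ± 0.56, adjusted p = 0.0243, edgeR) and was not called against CIE+IgG (-1.91 ± 0.56, adjusted p = 0.0956). With 6, 10 and 14 counts in CIE+IL17 Ab, Chrna5 passed the filter through the IgG groups, where it is high. Its call was thus in part fixed by the filter. The levels of these cluster neighbours thus ran opposite to each other in the CIE+IL17 Ab libraries.

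In CIE+IL17 Ab replicate 1 the estimated counts of Chrna3 and Chrnb4, 147.76 and 52.24, add up to 200.00, so some reads may have been divided between the pair. Between CIE+IgG and Air+IgG, Chrnb4 had the only unadjusted p under 0.05 among the list genes (0.00643, adjusted p = 1.0, edgeR), with 12, 7 and 44 counts in CIE+IgG and 3 counts in each Air+IgG library. CIE+IgG replicate 3 thus held most of those counts. Of the remaining subunits, Chrna2 had a log2 fold change of -0.89 ± 0.64, Chrna1 -0.81 ± 0.37 and Chrnb1, a muscle-type subunit, -0.07 ± 0.24 in CIE+IL17 Ab against CIE+IgG, and none of the 3 was called in any comparison.

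The genes around the subunits were called about as often as genes in general. Of 30 genes next to a member, taken as the nearest 3 on each side, 1 was called higher and 0 lower in CIE+IL17 Ab against CIE+IgG, and 1 higher and 3 lower against Air+IgG, where 3.18% and 13.5% of all genes were called. These shares give nothing particular to the neighbours. The higher gene was Chrnb4 in both, and Chrna5 was among the lower genes. The median log2 fold change of the 30 was 0.07 against CIE+IgG and 0.13 against Air+IgG, beside 0.015 and 0.012 over all genes.

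The wider cholinergic lists held 26 tested genes beside the 5 subunits, covering other subunits, receptor assembly and modulation, muscarinic receptors, and acetylcholine synthesis, transport and breakdown. In CIE+IL17 Ab against CIE+IgG, 2 of the 26 rose and 1 fell, beside 1.78% of all genes called higher and 1.41% called lower. Against Air+IgG 3 rose and 5 fell, beside 6.83% and 6.71% of all genes. Chrnb4 is among the genes that rose in both comparisons, and Chrna5 and Ly6g6e are among those that fell against Air+IgG. Each passed the filter on low counts through the group or groups where it is high, so these counts include genes selected in part for that difference. In CIE+IgG against Air+IgG 0 of the 26 passed in edgeR, DESeq2 or limma-voom. The median log2 fold change of the 26 was -0.08 in both antibody comparisons and 0.03 in CIE+IgG against Air+IgG.

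Ache, the acetylcholinesterase that ends the signal by breaking acetylcholine down, had 87.4, 77.8 and 62.1 CPM in CIE+IL17 Ab, 41.9, 37.1 and 47.2 CPM in CIE+IgG libraries and 38.1, 38.5 and 38.7 CPM in Air+IgG. It rose in CIE+IL17 Ab by 0.85 ± 0.13 on the log2 scale against CIE+IgG (adjusted p = 0.0242, edgeR) and by 0.98 ± 0.13 against Air+IgG (adjusted p = 0.0105). The related enzyme Bche, butyrylcholinesterase, went the other way against Air+IgG, where its log2 fold change was -0.59 (adjusted p = 0.0301). Chat, which makes acetylcholine, had 22, 106 and 94 counts in CIE+IL17 Ab, 1, 2 and 57 in CIE+IgG, and 1, 0 and 10 in Air+IgG, and was not called in any comparison. CIE+IgG replicate 3 overlapped the CIE+IL17 Ab libraries in this gene.

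The 9 assembly and modulator genes include chaperones and the Ly6 proteins that bind nicotinic receptors. Of these 9, 0 rose and 1 fell against CIE+IgG, and 0 rose and 2 fell against Air+IgG. Over all genes 1.41% fell against CIE+IgG and 6.71% against Air+IgG. Ly6e, a Ly6 family protein, had 65.0, 61.0 and 79.1 CPM in CIE+IL17 Ab, 135, 122 and 105 CPM in CIE+IgG libraries and 121, 118 and 109 CPM in Air+IgG. It fell in both antibody comparisons, by 0.82 on the log2 scale against CIE+IgG (adjusted p = 0.0242) and by 0.77 against Air+IgG (adjusted p = 0.0127). Ly6g6e, another Ly6 protein, had 0.157 to 0.422 CPM in CIE+IL17 Ab against 1.88 to 3.25 CPM in Air+IgG. The chaperones of alpha7 assembly, Ric3 and Tmem35a, had log2 fold changes of 0.05 ± 0.13 and 0.16 ± 0.15 against CIE+IgG and were not called.

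Of the 5 muscarinic receptor genes, the G protein-coupled receptors for acetylcholine, 0 were called against CIE+IgG, and 1 rose and 1 fell against Air+IgG. Over all genes 3.18% were called against CIE+IgG, and 6.83% rose and 6.71% fell against Air+IgG. Chrm2 had 124, 50.2 and 39.7 CPM in CIE+IL17 Ab, 20.8, 19.1 and 33.7 CPM in CIE+IgG libraries and 18.3, 11.4 and 19.9 CPM in Air+IgG, with a log2 fold change of 2.09 against Air+IgG (adjusted p = 0.0249). Chrm3 was lower against Air+IgG at -0.88 (adjusted p = 0.0441). Chrm1, the main muscarinic receptor of pyramidal neurons, had 8.48, 25.9 and 105 CPM in CIE+IL17 Ab, 239, 262 and 140.0 CPM in CIE+IgG libraries and 223, 303 and 208 CPM in Air+IgG. The CIE+IL17 Ab libraries did not overlap the IgG libraries and spread widely, and the gene was not called (adjusted p = 0.126 against CIE+IgG and 0.0634 against Air+IgG).

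The number of list genes called depended on which libraries were in the fit, while the 3 called against CIE+IgG kept their direction. With single libraries left out, their log2 fold changes were 2.17 to 3.52 for Chrnb4, 0.73 to 0.97 for Ache and -0.94 to -0.73 for Ly6e. The Air+IgG libraries are not in that comparison but share its estimate of the spread. The 3 calls against CIE+IgG became 0 on leaving out CIE+IL17 Ab replicate 2, replicate 1 or 2 of CIE+IgG, or replicate 1 or 3 of Air+IgG. They became 2 on leaving out Air+IgG replicate 2, 8 on leaving out CIE+IL17 Ab replicate 3 and 6 on leaving out CIE+IgG replicate 3. The 8 calls against Air+IgG became 2 on leaving out CIE+IL17 Ab replicate 2, and 3, 3 and 0 on leaving out Air+IgG replicates 1, 2 and 3.

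**Figure D4:**
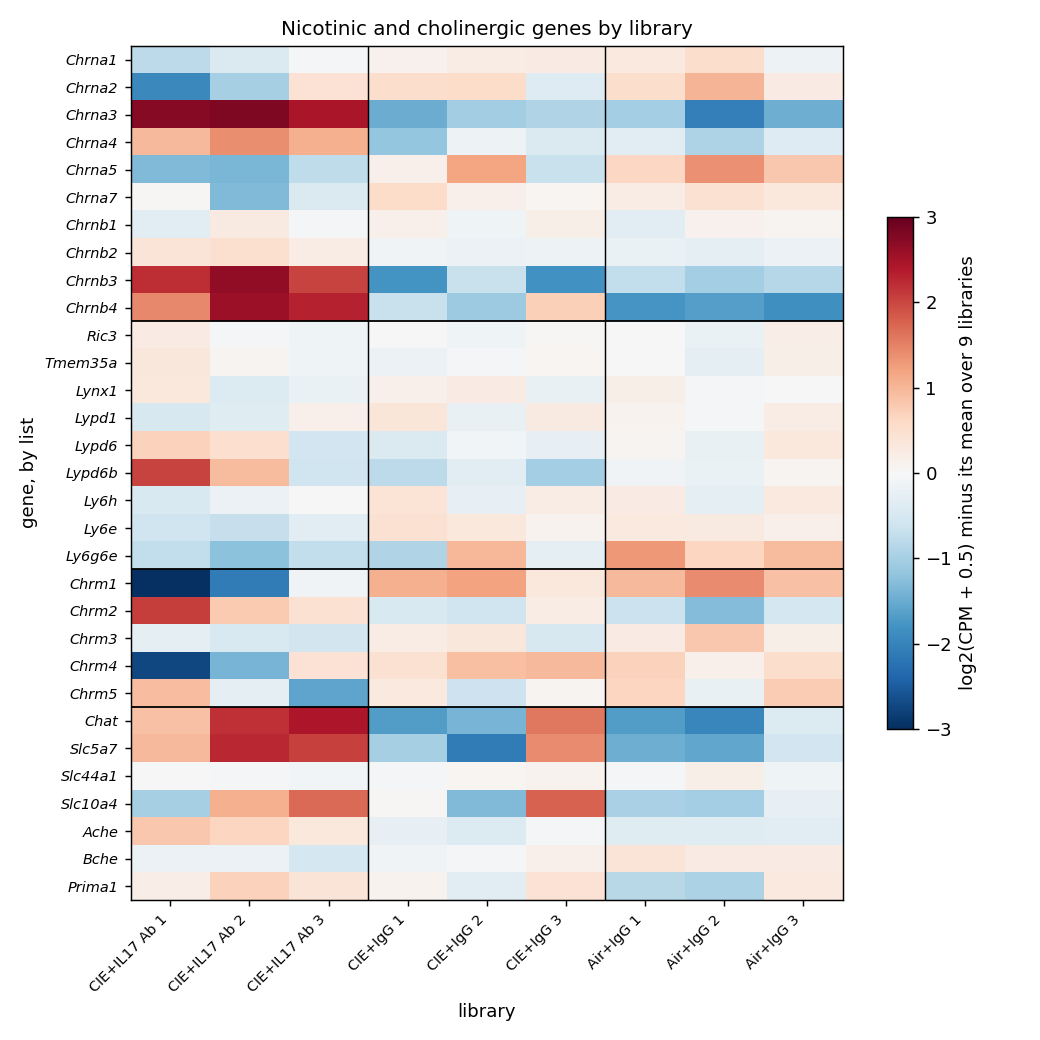
Deviation of log2(CPM + 0.5) from its mean over 9 libraries (colour, -3 to 3) for 31 nicotinic and cholinergic genes (rows, by list) in CIE+IL17 Ab, CIE+IgG and Air+IgG libraries (columns). Chrna3, Chrnb3 and Chrnb4 are high in all 3 CIE+IL17 Ab columns, and Chrnb4, Chat and Slc5a7 are also above their mean in CIE+IgG replicate 3.

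Most markers of neighbouring brain regions were higher in CIE+IL17 Ab, as were 4 of the 5 subunits. The 5 medial habenula markers Pou4f1, Tac2, Gpr151, Nwd2 and Tac1 summed to 157, 294 and 235 CPM in CIE+IL17 Ab, 67.3, 76.1 and 63.5 CPM in CIE+IgG libraries and 81.2, 56.2 and 83.7 CPM in Air+IgG. Of these 5, 3 were called higher against CIE+IgG and 4 against Air+IgG, beside 1.78% and 6.83% of all genes. Pou4f1, the transcription factor that defines medial habenula neurons, had 82.42, 112 and 52.97 counts in CIE+IL17 Ab, 0, 0 and 1 in CIE+IgG, and 0, 0 and 1 in Air+IgG. Pou4f1 was thus counted in all 3 CIE+IL17 Ab libraries and at 0 or 1 count in the other 6, where Chrna3, Chrnb3 and Chrnb4 had low but mostly higher counts. It passed the filter on low counts only through CIE+IL17 Ab, the group where it is high, so no test is read from its values. Nwd2 was detected in every library, at 36.7 CPM or more. Tac1 had 23.2 CPM in CIE+IgG replicate 3, above the 7.90 and 14.5 CPM of CIE+IL17 Ab replicates 2 and 3. The habenula markers Pou4f1, Tac2, Gpr151 and Nwd2 were higher in every CIE+IL17 Ab library than in any IgG library.

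The 7 thalamus markers in the table, Tcf7l2, Lef1, Prkcd, Lhx9, Synpo2, Plekhg1 and Ntng1, summed to 581, 1493 and 959 CPM in CIE+IL17 Ab, 189, 156 and 311 CPM in CIE+IgG libraries and 166, 186 and 158 CPM in Air+IgG. Of the 7, 6 were called higher against CIE+IgG and 7 against Air+IgG, beside 1.78% and 6.83% of all genes. No gene was called against CIE+IgG without CIE+IgG replicate 1, or against Air+IgG without Air+IgG replicate 3. The marker calls thus also depended on which libraries were in the fit. Prkcd overlapped, with 65.9 and 106 CPM in CIE+IgG replicates 1 and 3 against 55.3 CPM in CIE+IL17 Ab replicate 1. The other thalamus markers did not overlap the IgG libraries. Among CIE+IL17 Ab libraries, replicate 2 had the highest level of Chrna3, Chrnb3, Chrna4 and Chrnb2 and also of the thalamus and habenula sums. Nwd2 gave 219 of the 294 CPM of that habenula sum, and not every marker had this order, since Pou4f1 (11.4, 8.77 and 5.59 CPM in CIE+IL17 Ab), Tac1 and Lhx9 were highest in replicate 1. Of the 7 hippocampal pyramidal and granule cell markers, 0 were called higher and 2 lower in each antibody comparison. Over all genes 1.41% were called lower against CIE+IgG and 6.71% against Air+IgG. Spink8 and Neurod6 reached 10 counts in all libraries of a group only in the IgG groups. Both thus passed the filter through the groups where they are high.

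Chrna7 ran in another order within CIE+IL17 Ab, highest in replicate 1 and lowest in replicate 2. The summed level of 8 interneuron markers had that order too, at 935, 460.0 and 718 CPM in CIE+IL17 Ab, and was 718, 645 and 1001 CPM in CIE+IgG libraries and 647, 602 and 718 CPM in Air+IgG. Most of the sum came from Gad1 and Gad2, the enzymes that make GABA, which had 419 and 363 CPM in CIE+IL17 Ab replicate 1. Lhx6, Sst and Ndnf did not have that order, with Lhx6 at 0.556, 3.68 and 8.12 CPM in CIE+IL17 Ab. Lhx6 had 11.7 CPM or more in each IgG library. Sst and Npy were also lower in every CIE+IL17 Ab library than in any IgG library, while Gad1, Gad2, Pvalb, Vip and Ndnf overlapped. The sum thus does not stand for each marker of the list. Of the 8, 0 were called higher and 1 lower against CIE+IgG, and 2 lower against Air+IgG, beside 1.41% and 6.71% of all genes called lower. The part of any of these cell types in the levels of the subunits was not tested.

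The remaining marker lists gave ranges that overlapped between groups, apart from microglia and, against Air+IgG, the cholinergic and dopaminergic lists. Microglia markers summed to 154 to 169 CPM in CIE+IL17 Ab, 206 to 211 CPM in CIE+IgG libraries and 193 to 227 CPM in Air+IgG. Of 5 markers 2 were called lower against CIE+IgG and 3 against Air+IgG, beside 1.41% and 6.71% of all genes. The 2 cholinergic markers in the table summed to 11.7 to 30.3 CPM in CIE+IL17 Ab, 0.819 to 17.3 CPM in CIE+IgG libraries and 1.08 to 3.60 CPM in Air+IgG. For 2 dopaminergic markers the ranges were 19.6 to 23.9 CPM in CIE+IL17 Ab, 12.4 to 22.4 CPM in CIE+IgG libraries and 13.0 to 14.2 CPM in Air+IgG. Of these, 1 of the 2 was called higher against Air+IgG, beside 6.83% of all genes. The 5 striatum markers ranged over 50.5 to 292 CPM in CIE+IL17 Ab, 59.9 to 470 CPM in CIE+IgG libraries and 37.9 to 75.5 CPM in Air+IgG. The 5 choroid plexus markers ranged over 35.7 to 6975 CPM in CIE+IL17 Ab, 2939 to 5499 CPM in CIE+IgG libraries and 499 to 3653 CPM in Air+IgG. No listed marker in the table was at 0 in all libraries of a group.

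**Figure D5:**
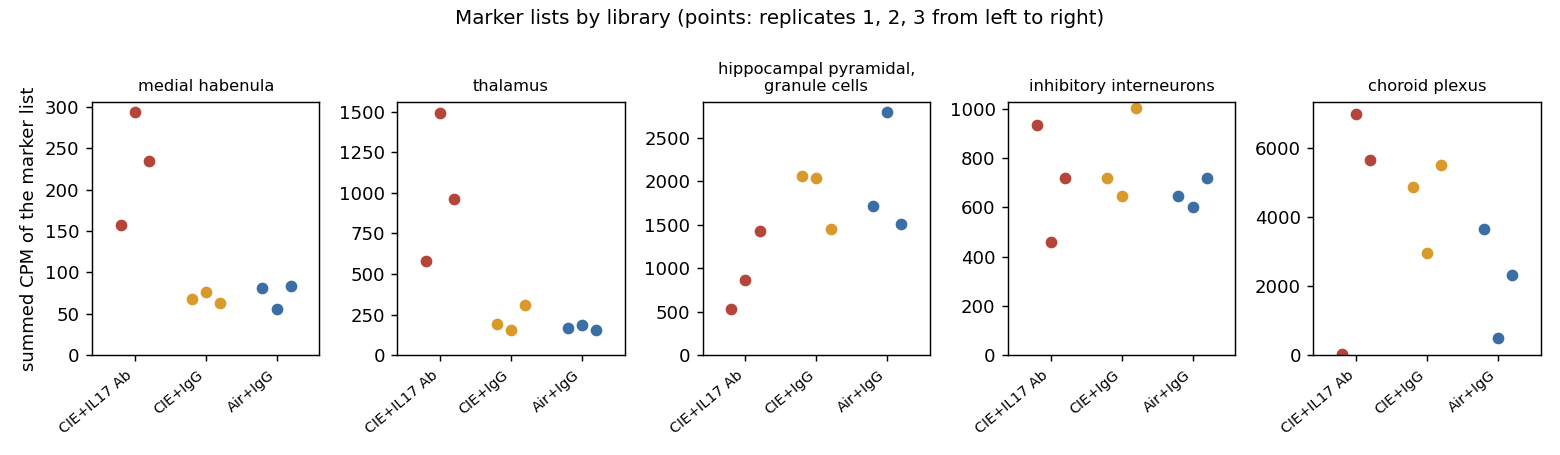
Summed TMM-scaled CPM (y axis, from 0, with its own scale per panel) of 5 marker lists in CIE+IL17 Ab, CIE+IgG and Air+IgG, with replicates 1, 2 and 3 from left to right. Medial habenula and thalamus sums are higher in all 3 CIE+IL17 Ab libraries, and pyramidal and granule cell sums are lower in all 3, with CIE+IL17 Ab replicate 3 at 1432 close to CIE+IgG replicate 3 at 1449.

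The genes most like each subunit were taken by Pearson's r of log2 CPM over the 9 libraries, as a description with no test. For Chrna3 the nearest were Fhdc1 (r = 0.990), Kcna6, Plekha6, Cdyl and Sh3bgrl2, and for Chrnb3 Mast1 (r = 0.982), Necab3, Cdr1, Lrrc55 and Chml. For Chrna4 they were Mgat5b (r = 0.980), Zdhhc22, Slc25a37, Sh3bgrl2 and Rora, and for Chrnb2 Sdc3 (r = 0.992), Cdyl, Rraga, Dynll2 and Jag2. All of these genes were higher on average in CIE+IL17 Ab, as the 4 subunits are. Chrna7 was followed by Snn (r = 0.983), Lcmt1, Vstm2a, Mmd2 and Arl8b, all lower on average in CIE+IL17 Ab. Likeness was not scarce, since r was above 0.9 with 357 genes for Chrna3, 103 for Chrnb3, 189 for Chrna4, 339 for Chrnb2 and 166 for Chrna7, of 14695.

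The subunits also varied together over the 9 libraries, which share their group differences. Pearson's r was 0.96 between Chrna3 and Chrna4, 0.96 between Chrna3 and Chrnb2, 0.93 between Chrna3 and Chrnb3, and -0.85 between Chrna4 and Chrna7. After the group means were taken out, r was 0.77 between Chrna3 and Chrna4 and 0.69 between Chrna4 and Chrnb3, but 0.34 between Chrna3 and Chrnb2 and 0.13 between the partners Chrna4 and Chrnb2. Much of the likeness over the 9 libraries was therefore the difference between groups.

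The labels number 3 libraries 37 to 39, 1 in each group, and the other 6 libraries 54 to 60, with no word on what the numbers mean. In the libraries 37 to 39, Chrna3 had 21.8 CPM in CIE+IL17 Ab, 1.21 CPM in CIE+IgG libraries and 0.663 CPM in Air+IgG. Chrna7 had 7.67 CPM in CIE+IL17 Ab, 21.1 CPM in CIE+IgG libraries and 25.1 CPM in Air+IgG there. In the libraries 54 to 60, with 2 in each group, the log2 fold changes in CIE+IL17 Ab against CIE+IgG were 4.44 for Chrna3, 4.20 for Chrnb3, 1.61 for Chrna4, 0.43 for Chrnb2 and -0.56 for Chrna7. Each subunit thus kept its direction in both sets of libraries, with the smaller difference in Chrna7 among those numbered 54 to 60.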

How the data were processed

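Polyadenylated RNA of mouse hippocampus was sequenced from TruSeq stranded libraries, per the labels' protocols. As deposited by the authors, the table holds 1 expected count (RSEM's estimated count) per gene and library, unscaled, for 14779 genes. The submitters' processing notes name STAR 2.5.1a, RSEM 1.3.0 and the build GRCm38. The authors' annotation, use of strand and filters are not given in the labels. In the table each gene has at least 3 libraries with 6 counts or more, and 27.1% of values have decimals, as reads that match several genes are divided between them. Symbols, exon lengths and coordinates came from GENCODE M21, which matched 14628 identifiers.

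Groups follow the sample titles. Counts were rounded, filtered with filterByExpr (minimum count 10) and fitted on all 9 libraries with edgeR 4.0.16 in R 4.3.3, with TMM factors and its quasi-likelihood test (robust=TRUE, with 6 degrees of freedom left). Benjamini-Hochberg adjustment ran over the 14696 genes, with calls under 0.05. The common biological coefficient of variation came to 0.189. A standard error is the size of the log2 fold change divided by the square root of F. Log2 CPM for likeness used a prior count of 2. Intervals of summed counts were exact binomial ones at 95%.

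The genes, the lists and the tests were chosen with earlier results of these data known. Named genes were the 5 members, every nicotinic subunit in the table, list genes called in any comparison or up to 2 with the smallest p of a list without a call, the 3 nearest genes on each side of a member, and the 5 genes of highest r to each; not every gene of this rule is reported here. Chat, Slc5a7, Ric3, Tmem35a, Gad1, Gad2, Lhx6, Sst, Npy, Pvalb, Vip, Ndnf and Th are named in addition, after their values were seen. So are the hippocampal pyramidal and granule cell markers. Alternatives were DESeq2 1.42.0 and its size factors, limma-voom (limma 3.58.1), other filters, a fit of 2 groups only, robust=FALSE, replicate or label number as a block, the libraries numbered 54 to 60 only, each library left out, and the longest transcript as length. Fits were tested on simulated data. The labels do not say that replicate numbers pair mice. P-values set a difference between groups against the spread of libraries within groups.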

Additional observations from a re-analysis of the deposited data

How the results depend on the processing

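The 5 subunits kept the direction of their antibody comparisons in every alternative that gave a value, while a filter of more than 1 CPM in all libraries left Chrna3 and Chrnb3 untested. With single libraries left out, log2 fold changes in CIE+IL17 Ab against CIE+IgG were 4.10 to 4.52 for Chrna3, 4.42 to 6.47 for Chrnb3, 1.46 to 1.92 for Chrna4, 0.44 to 0.57 for Chrnb2 and -1.14 to -0.47 for Chrna7. In CIE+IgG against Air+IgG, Chrna4 (-0.24 to 0.23) and Chrna7 (-0.23 to 0.03) changed sign with a library left out, and both had 0.02 in the libraries 54 to 60. Chrnb1 changed sign too, at -0.27 to 0.07 against CIE+IgG and -0.16 to 0.18 against Air+IgG, and at -0.09 against Air+IgG in the libraries 54 to 60. The 4 subunits called against CIE+IgG were 1 with only the 2 groups compared and 2 with the strict filter or the replicate block. The 4 against Air+IgG were 2 with the strict filter and 5 with DESeq2 or without CIE+IL17 Ab replicate 1, and 0 were called in either comparison in the libraries 54 to 60. The 3 list genes called against CIE+IgG were 6 with DESeq2, 0 with only the 2 groups compared, 0 in the libraries 54 to 60, and 0 to 8 with a library left out. The 8 called against Air+IgG were 5 with the strict filter, 0 in the libraries 54 to 60, and 0 to 11 with a library left out. Over all genes, the 468 calls against CIE+IgG were 1481 with DESeq2, 776 with the label number as a block, 1 with only the 2 groups compared and 1 in the libraries 54 to 60. The 1990 calls against Air+IgG were 1192 with only the 2 groups compared and 2 in the libraries 54 to 60. The cause of these shifts was not tested, beyond fewer genes or libraries in the fit.

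Libraries of the same replicate number correlated at -0.27 to 0.249 in their deviations from group means. Those of different numbers correlated at -0.253 to 0.279. With 3 libraries per group these correlations cannot decide whether the numbers pair mice. With the replicate block, 14 genes were called in place of 468 against CIE+IgG and 571 in place of 1990 against Air+IgG, and list genes called were 0 and 3. The log2 fold change of Chrna3 against CIE+IgG was 4.32 with the block.

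Of the 5 genes most like each subunit, Spearman's rho shared 0 for Chrna3, 0 for Chrnb3, 1 for Chrna4, 1 for Chrnb2 and 0 for Chrna7, and deviations from group means shared 0, 0, 0, 0 and 1 in the same order, so these lists depend on the measure. Per kb of the longest transcript, in CIE+IL17 Ab, CIE+IgG and Air+IgG, Chrnb2 had 17.4, 12.2 and 11.7 CPM and Chrna7 5.10, 8.63 and 9.06. Chrna3 had 4.53 in CIE+IL17 Ab, and Chrnb3 had 2.18 in CIE+IL17 Ab and 0.142 in Air+IgG.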
